A study of Mus musculus with 11 samples.

Results

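The genes described here encode the translation initiation factors of the mouse. They were chosen by their symbols, with earlier results of these data known: a probe set was kept when it carried exactly 1 gene symbol made of Eif and a digit from 1 to 6, the kinases named Eif2ak were left out, and each gene was read by its brightest probe set, judged by the mean of all arrays. That gave 43 genes with 120 probe sets, out of 18194 genes measured. The RNA came from spleen T cells of female mice, 3 to 4 months old, left after magnetic removal of the other cell types, and each sample was hybridised to 1 one-colour Affymetrix array. C57BL6 wild-type animals were compared with C57BL6 crbn-/- animals, called knockout here and labelled as lacking cereblon, a substrate receptor of an E3 ubiquitin ligase. Cells of both genotypes had been grown in RPMI medium and were collected either naive, without activation (3 wild-type and 3 knockout arrays), or after 12 hours on plate-bound anti-CD3 at 5 µg/ml with soluble anti-CD28 at 1 µg/ml, called activated here (2 wild-type and 3 knockout arrays). A group cultured for those hours without antibodies was not analysed here, so time in culture and stimulation cannot be told apart. The sources used here do not say how the knockout line was made. The genes Eif1, Eif2s1, Eif3g, Eif3j1, Eif3j2, Eif4e1b, Eif4ebp3 and Eif4g1 were not analysed here.

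Initiation is the step of protein synthesis in which a small ribosomal subunit finds the start codon of an mRNA. The factor eIF2 brings the initiator tRNA and is recharged with GTP by eIF2B, eIF4F binds the cap and unwinds the leader, eIF3 joins the mRNA to the small subunit, and eIF5B joins the large one. Naive T cells are small and make little protein; stimulation through the antigen receptor and CD28 is known to raise protein synthesis before the cells divide, in part through mTOR and MYC.

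All values are log2 RMA levels as deposited, that is, brightness after background correction, quantile normalisation and summary over the probes of a set. A difference of 1 is a doubling, and levels of different genes are not compared because each probe set has its own brightness. Array medians lay between 5.84 and 5.89, and Pearson correlations between arrays of a group between 0.994 and 0.998. Crbn itself checked the labels: its mean was 10.12 in wild-type and 8.99 in knockout naive arrays, a difference of -1.13 (SE 0.08, limma adjusted p = 0.000087), and -0.90 in activated cells (SE 0.09, adjusted p = 0.004). The sources used here do not give the part of the gene that was deleted, so the signal left in knockout arrays was not interpreted. The 9 measured T cell markers averaged 11.5 to 11.7 in the naive and 10.7 to 10.9 in the activated arrays. Of 7 activation markers 6, all but Nr4a1, passed the test upward in each genotype. Of all genes 20.2% did so in wild-type and 20.7% in knockout cells. Of 4 measured naive T cell markers 3 passed downward in each genotype, where 20.9% and 22.4% of all genes did. Other cell types remained detectable: the 7 measured B cell markers averaged 8.13 to 9.10 in naive and 7.08 to 7.97 in activated arrays. The 2 measured plasma cell markers averaged 9.28 to 9.58 in naive and 7.76 to 8.18 in activated arrays. For the 4 measured NK cell markers the means were 8.25 to 8.71 and 7.79 to 8.08. The 6 measured erythroid markers averaged 6.26 to 9.01 in naive and 5.82 to 6.73 in activated arrays. Means of the B cell, plasma cell and NK cell lists were lower in activated than in naive arrays of each genotype, without overlap. Those of the erythroid list were lower without overlap in wild-type cells only. In knockout cells they overlapped, at 7.75, 6.60 and 6.26 before and 6.73, 6.09 and 5.82 after. The part of these lists in the activation results was not tested.

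Promoter sequence is shown for members that moved in opposite directions on activation: Eif4e and Eif4a1, which rose, and Eif4a2 and Eif3f, which fell. It comes from the RefSeq annotation on GRCm38.p6 and is written 5′ to 3′ on the strand of the gene, over the 250 bases before the annotated start unless stated, with the E-box CACGTG in capitals. This palindrome, which reads the same on both strands, is the motif bound by MYC and its relatives. Eif4e has 2 annotated starts and the window of the downstream one lies inside the gene, so only 30 bases around each of its E-boxes are shown, which begin 228 and 64 bases before that start (chr3:138527028-138527057 and chr3:138527192-138527221, plus strand). The window of the upstream start of Eif4e holds no E-box. The window of Eif4a1 (chr11:69672424-69672673, minus strand) holds 1 E-box, beginning 189 bases before the start, that of Eif4a2 (chr16:23107218-23107467, plus strand) holds none, and that of Eif3f (chr7:108934165-108934414, plus strand) holds 1, beginning 68 bases before it.
Eif4e, upstream E-box: ctcgccagcgacCACGTGatcacttttttt
Eif4e, downstream E-box: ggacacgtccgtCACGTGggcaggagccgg
Eif4a1: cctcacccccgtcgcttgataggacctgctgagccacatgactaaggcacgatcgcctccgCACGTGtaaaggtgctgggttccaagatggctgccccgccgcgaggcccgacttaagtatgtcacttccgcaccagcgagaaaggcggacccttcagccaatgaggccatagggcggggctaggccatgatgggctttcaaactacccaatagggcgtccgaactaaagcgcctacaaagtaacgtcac
Eif4a2: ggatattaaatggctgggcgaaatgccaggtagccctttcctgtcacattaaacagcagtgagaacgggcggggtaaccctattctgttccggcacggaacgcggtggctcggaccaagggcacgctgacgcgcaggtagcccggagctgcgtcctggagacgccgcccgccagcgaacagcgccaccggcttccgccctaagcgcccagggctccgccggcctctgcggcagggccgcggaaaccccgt
Eif3f: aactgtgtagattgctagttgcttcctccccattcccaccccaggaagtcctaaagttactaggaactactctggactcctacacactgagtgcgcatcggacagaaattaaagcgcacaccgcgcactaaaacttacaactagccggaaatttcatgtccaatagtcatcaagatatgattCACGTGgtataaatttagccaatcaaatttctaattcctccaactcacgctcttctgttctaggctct

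A promoter window of 300 bases from 250 before to 50 after the start was held for 34 of the 43 members. The E-box was present in 9 of these 34 (26.5%), against 1479 of 14453 measured genes with a window (10.2%) and 7.15% of all 32851 windows of the table. The 9 were Eif1b, Eif3a, Eif3f, Eif3k, Eif4a1, Eif4e, Eif4h, Eif5a and Eif5a2. A gene with several annotated starts was counted when any of its windows held the motif. For Eif4e and Eif5a only some of the windows did. Of the 9 genes 6 rose and 1 fell in wild-type activation, with a median difference of 0.46, and of the other genes with a window 18 rose and 1 fell, with a median of 0.54; the relation of the motif to the response was not tested. The start of a pyrimidine tract, a C followed by 4 bases that are each C or T and lying within 5 bases of the annotated start, was read on the gene's strand in 9 of the 34 (26.5%), near the 23.1% of measured genes.

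Activation moved most of the family upward. In wild-type cells 29 of 43 genes rose and 3 fell (67.4% and 6.98%), where 20.2% of all genes rose and 20.9% fell at the same threshold, an adjusted p under 0.05 in limma over all 18194 genes. In knockout cells 29 rose and 4 fell (67.4% and 9.3%), against 20.7% and 22.4% of all genes. The median difference of the 43 genes was 0.53 in wild-type and 0.67 in knockout cells, and that of all genes 0.06 and -0.03. Calls were more frequent among the 9097 genes above the median level, which hold 41 of the 43 members. Tested alone, 2889 of these 9097 genes rose and 3316 fell in wild-type cells, with a median of -0.02. In knockout cells 3369 rose and 3362 fell, with a median of -0.01. Rises of at least 1 log2 were made by 6 members in wild-type cells (14%, against 3.7% of all genes) and by 11 in knockout cells (25.6%, against 6.02%), and no member fell that far. The naive and activated arrays did not overlap for 36 members in wild-type cells, 31 upward and 5 downward, where 57% of all genes did not overlap (31.1% upward and 25.8% downward). In knockout cells they did not overlap for 38 members, 33 upward and 5 downward, where 52.5% of all genes did not (24.5% and 28%). Because an equal mass of total RNA was labelled from every sample, these are changes relative to total RNA, and in a bulk sample fewer cells of a type and less RNA per cell cannot be told apart.

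**Figure D1:**
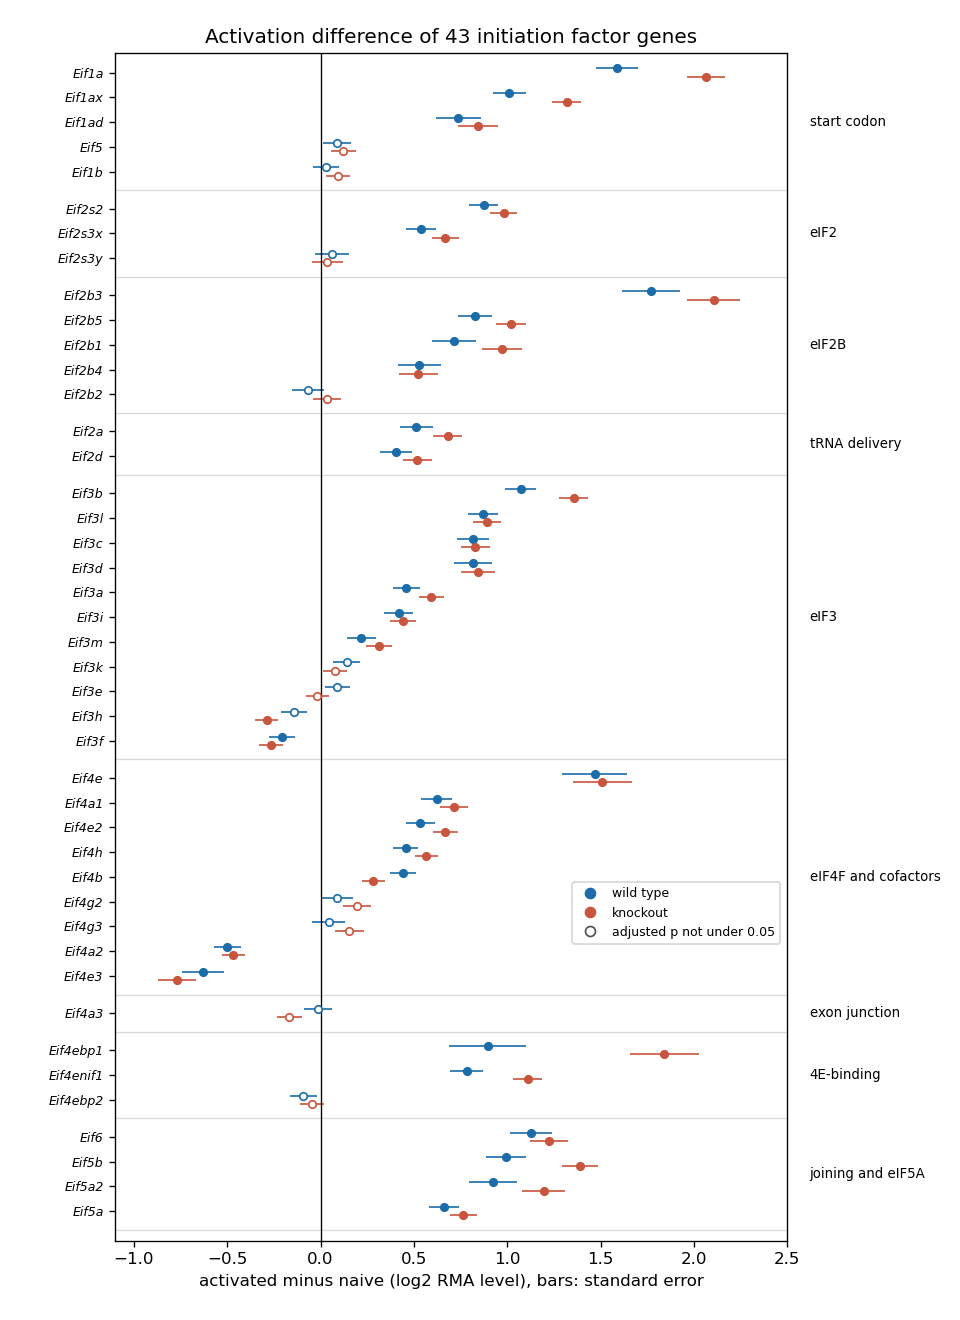
Activated minus naive difference of the log2 RMA level for each of the 43 genes, by role, in wild-type (blue) and knockout (red) cells; bars are standard errors and open points did not pass an adjusted p of 0.05. The points run from -0.63 to 1.77 in wild-type and from -0.77 to 2.11 in knockout cells, and most lie to the right of 0 in every role but the exon junction helicase.

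The calls were shared between the genotypes. Counts by role, given below, stand beside the shares of all genes: 20.2% rose and 20.9% fell in wild-type cells, and 20.7% and 22.4% in knockout cells. The same 29 genes rose in both, and Eif3f, Eif4a2 and Eif4e3 fell in both. Eif3h passed the test only in knockout cells, and the difference between its responses is given with the interaction. The 10 genes that passed in neither were Eif1b, Eif2b2, Eif2s3y, Eif3e, Eif3k, Eif4a3, Eif4ebp2, Eif4g2, Eif4g3 and Eif5.

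Among the 5 measured factors of scanning and start codon choice 3 rose and none fell in either genotype, with a median difference of 0.74 for wild-type and 0.84 for knockout cells. Eif1a and Eif1ax encode forms of eIF1A, which opens the small subunit for scanning. Eif1a stood at 9.10, 8.78 and 8.71 in wild-type naive arrays and at 10.46 and 10.44 in the activated ones, and in knockout arrays at 8.49, 8.66 and 8.51 before and 10.66, 10.49 and 10.71 after. All 5 activated arrays lay more than 1 unit above all 6 naive arrays. The difference was 1.59 in wild-type (SE 0.11, limma adjusted p = 2.0e-07) and 2.07 in knockout cells (SE 0.10, adjusted p = 3.9e-09), 3.01-fold and 4.19-fold. Eif1ax stood at 10.50, 10.23 and 10.26 in wild-type naive arrays and 11.36 and 11.32 in activated ones, and in knockout arrays at 10.16, 10.14 and 10.04 before and 11.41, 11.40 and 11.48 after. Its groups did not overlap either, and it rose by 1.01 (SE 0.09, adjusted p = 1.1e-06) and 1.32 (SE 0.08, adjusted p = 2.1e-08). The 2 genes are close paralogs, and cross-hybridisation between their probe sets was not tested. Eif1ad, which encodes a protein with an eIF1A domain, rose by 0.74 and 0.84. Eif1b, a paralog of the start codon factor gene Eif1, differed by 0.03 and 0.09 and did not pass.

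Eif5, the GTPase-activating protein of eIF2, depended on the probe set read. By the rule it was read by its brightest probe set, 1415723_at, at 11.57, 11.67 and 11.60 in wild-type naive arrays and 11.64 and 11.77 in activated ones, and at 11.68, 11.60 and 11.60 against 11.78, 11.68 and 11.79 in knockout cells. These groups nearly met or overlapped, and the differences of 0.09 (SE 0.08) and 0.12 (SE 0.07) did not pass. Over all probe sets tested together, 1433631_at, 1454663_at and 1454664_a_at rose, by 0.38, 0.89 and 0.95 in wild-type and by 0.65, 1.06 and 1.06 in knockout cells. The probe set 1456256_at fell, from 8.49, 8.31 and 8.37 to 7.21 and 7.47 in wild-type and from 8.62, 8.56 and 8.55 to 7.68, 7.64 and 8.07 in knockout arrays. That is a difference of -1.05 (SE 0.12, limma adjusted p = 1.5e-05) and -0.78 (SE 0.11, adjusted p = 5.1e-05), with no overlap in either genotype. The parts of the transcript that the probe sets read are not given in the files, so a direction for Eif5 as a gene is not stated.

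**Figure D2:**
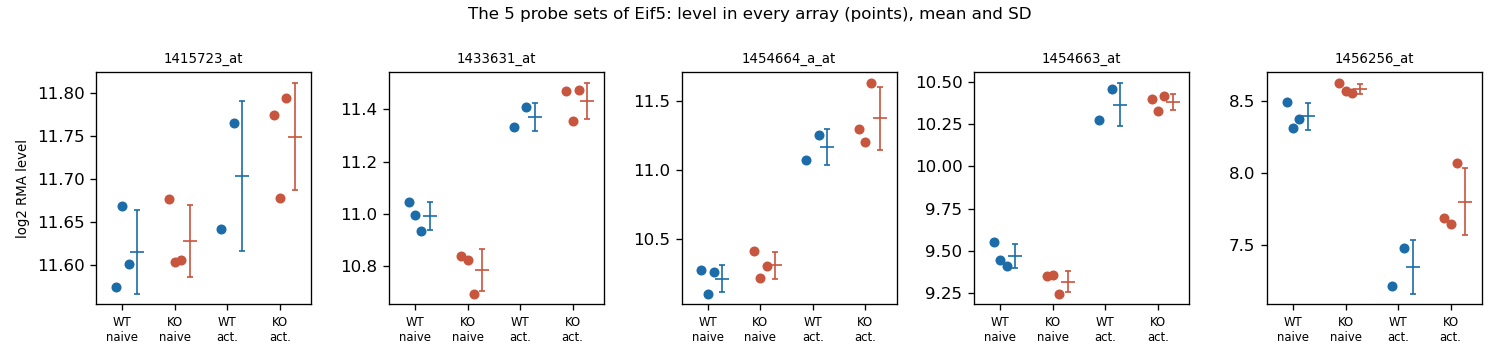
Log2 RMA level of each of the 5 probe sets of Eif5 in every array, with a separate vertical scale for each; points are arrays, and the bars beside them are the mean and SD of the group. Between naive and activated arrays 3 probe sets rise, 1456256_at falls by 1.05 in wild-type cells, and 1415723_at, the brightest, changes by 0.09.

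The GTP-binding factor eIF2 was measured through its beta subunit Eif2s2 and its gamma subunit, encoded by Eif2s3x on the X and Eif2s3y on the Y chromosome; 2 of the 3 rose in each genotype. Eif2s2 stood at 11.93, 11.77 and 11.73 in wild-type naive arrays and 12.63 and 12.75 in activated ones, and in knockout arrays at 11.73, 11.76 and 11.73 before and 12.75, 12.68 and 12.73 after. Every activated array was above every naive one, by 0.87 on average in wild-type (SE 0.08, limma adjusted p = 1.5e-06) and 0.98 in knockout cells (SE 0.07, adjusted p = 1.0e-07). Eif2s3x stood at 11.82, 11.70 and 11.61 before and 12.31 and 12.19 after in wild-type cells, and at 11.62, 11.74 and 11.68 before and 12.36, 12.32 and 12.37 after in knockout cells. Its groups did not overlap, and it rose by 0.54 (SE 0.08, adjusted p = 0.00013) and 0.67 (SE 0.07, adjusted p = 4.6e-06). Eif2s3y, for which female animals carry no gene, lay below 4.57, the smallest of the array lower quartiles, in all 11 arrays, at group means of 3.01 to 3.09, and was the only member to do so.

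The exchange factor eIF2B reloads eIF2 with GTP and is built from the products of Eif2b1 to Eif2b5, of which the gamma and epsilon subunits, Eif2b3 and Eif2b5, form the catalytic pair. Of the 5 genes 4 rose and none fell in either genotype, with medians of 0.71 and 0.97. Eif2b3 stood at 8.16, 7.80 and 7.62 in wild-type naive arrays and 9.41 and 9.86 in activated ones, and in knockout arrays at 7.82, 7.66 and 7.52 before and 9.79, 9.69 and 9.83 after. Its lowest activated array lay above its highest naive array. It made the largest rise of the 43 genes in both genotypes, 1.77 in wild-type (SE 0.16, limma adjusted p = 1.1e-06, 3.42-fold) and 2.11 in knockout cells (SE 0.14, adjusted p = 4.9e-08, 4.3-fold), read by its single probe set. Eif2b5 stood at 9.47, 9.36 and 9.36 before and 10.08 and 10.37 after in wild-type cells, and at 9.29, 9.20 and 9.27 before and 10.28, 10.21 and 10.32 after in knockout cells. Again the groups did not overlap, and the rise was 0.83 (SE 0.09, adjusted p = 8.0e-06) and 1.02 (SE 0.08, adjusted p = 2.6e-07). Eif2b1, the alpha subunit, rose by 0.71 and 0.97, and Eif2b4, the delta subunit, by 0.53 and 0.52. Eif2b2, the beta subunit, did not pass, with -0.07 (SE 0.08) in wild-type and 0.04 (SE 0.08) in knockout cells, and none of its 3 probe sets passed. The subunits of this complex spanned from a difference that did not pass to the largest rise of the family.

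Eif2a and Eif2d encode factors that can bring tRNA to the ribosome without eIF2, and both rose. Eif2a stood at 9.14, 9.12 and 9.11 in wild-type naive arrays and 9.53 and 9.74 in activated ones, and in knockout arrays at 9.002, 9.17 and 9.16 before and 9.74, 9.89 and 9.75 after. Eif2d stood at 9.43, 9.27 and 9.26 before and 9.65 and 9.80 after in wild-type cells, and at 9.31, 9.23 and 9.20 before and 9.73, 9.87 and 9.70 after in knockout cells. Neither gene overlapped between the states in either genotype. Eif2a rose by 0.51 (SE 0.09, limma adjusted p = 0.00034) and 0.68 (SE 0.08, adjusted p = 7.5e-06), and Eif2d by 0.41 (SE 0.09, adjusted p = 0.0019) and 0.52 (SE 0.08, adjusted p = 8.4e-05).

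Most of the measured eIF3 subunits rose. Of 11 measured subunits 7 rose and 1 fell in wild-type cells, and 7 rose and 2 fell in knockout cells, with medians of 0.42 and 0.44. Of all genes 20.2% rose and 20.9% fell in wild-type cells, and 20.7% and 22.4% in knockout cells. Eif3b, a scaffold subunit, stood at 10.39, 10.26 and 10.28 in wild-type naive arrays and 11.26 and 11.51 in activated ones, and in knockout arrays at 10.10, 10.07 and 10.08 before and 11.46, 11.41 and 11.45 after. It rose furthest of the subunits, without overlap, by 1.07 (SE 0.08, limma adjusted p = 4.4e-07) and 1.36 (SE 0.08, adjusted p = 1.0e-08). Eif3l stood at 10.95, 10.83 and 10.83 before and 11.66 and 11.83 after in wild-type cells, and at 10.86, 10.79 and 10.73 before and 11.72, 11.71 and 11.63 after in knockout cells. It too did not overlap, with rises of 0.87 (SE 0.08) and 0.89 (SE 0.07). Eif3c, another scaffold subunit, rose by 0.82 and 0.83, and Eif3d, a subunit that can itself bind the cap, by 0.81 and 0.84. Eif3a, the largest scaffold subunit, rose by 0.46 and 0.59, Eif3i by 0.42 and 0.44, and Eif3m by 0.22 and 0.31, the wild-type call of Eif3m (adjusted p = 0.038) being lost under several other settings; all 4 probe sets of Eif3a and all 4 of Eif3c passed upward in both genotypes.

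The remaining eIF3 subunits did not rise. Eif3f, which carries an MPN domain, stood at 12.98, 13.04 and 13.01 in wild-type naive arrays and 12.84 and 12.78 in activated ones, and in knockout arrays at 13.01, 13.05 and 13.01 before and 12.72, 12.82 and 12.73 after. Each activated array was below each naive array, but the differences were small, -0.21 (SE 0.07, limma adjusted p = 0.03) and -0.26 (SE 0.06, adjusted p = 0.0033). The wild-type call was lost when 1 array was left out, with adjusted p = 0.0885, 0.0596 and 0.1094 for the fits that dropped replicate 2 or 3 of the wild-type naive arrays or replicate 2 of the activated ones. Eif3h, its MPN partner, stood at 12.19, 12.20 and 12.24 before and 12.01 and 12.13 after in wild-type cells, and at 12.30, 12.30 and 12.29 before and 11.96, 12.05 and 12.01 after in knockout cells. Activated arrays were the lower ones in both genotypes, by -0.14 (SE 0.07, adjusted p = 0.14, not passing) and -0.29 (SE 0.06, adjusted p = 0.002), and the mean of its 3 probe sets gave -0.05 with adjusted p = 0.522 in knockout cells. Eif3e and Eif3k differed by at most 0.14 and did not pass, and none of the 4 probe sets of Eif3e did.

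**Figure D3:**
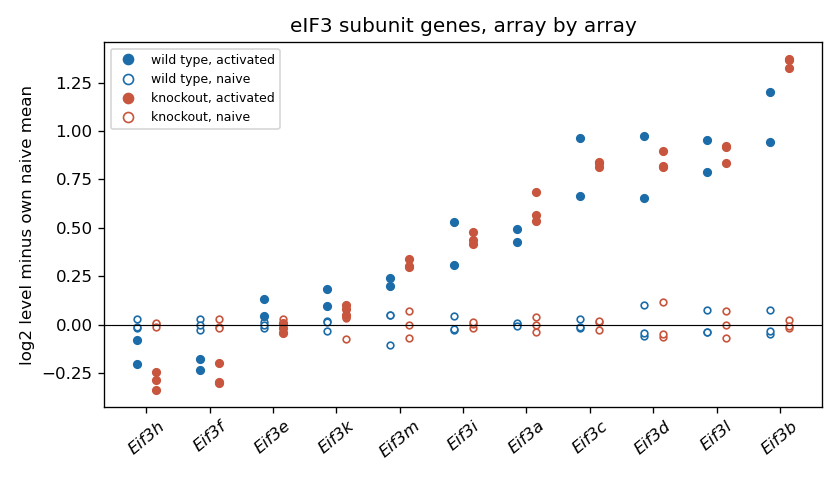
Log2 RMA level of the 11 eIF3 subunit genes in each array, minus the mean of the naive arrays of the same genotype; filled points are activated and open points naive arrays, wild type in blue and knockout in red. The activated arrays of Eif3f and Eif3h lie below 0, those of Eif3e around 0, and those of Eif3b above those of the other subunits in knockout cells.

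In the cap-binding complex eIF4F and its cofactors some paralogs moved in opposite directions. Of 9 measured genes 5 rose and 2 fell in each genotype, with medians of 0.44 and 0.28. The share that fell is near that of all genes, 20.9% in wild-type and 22.4% in knockout cells, where 20.2% and 20.7% rose. Eif4e encodes the protein that binds the cap, and the E-boxes of its downstream window are shown above. It stood at 9.49, 9.12 and 9.11 in wild-type naive arrays and 10.46 and 10.96 in activated ones, and in knockout arrays at 9.28, 9.13 and 8.85 before and 10.81, 10.41 and 10.58 after. The lowest activated array was 10.41 and the highest naive array 9.49, and the rise was 1.47 (SE 0.17, limma adjusted p = 1.6e-05, 2.77-fold) and 1.51 (SE 0.16, adjusted p = 2.8e-06, 2.85-fold). Of its 4 probe sets 3 passed upward in wild-type and 4 in knockout cells. Eif4e2, which binds the cap but is known mainly as a repressor, rose by 0.54 and 0.67.

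Eif4e3, an atypical cap-binding paralog, went the other way. It stood at 8.37, 8.26 and 8.28 in wild-type naive arrays and 7.70 and 7.64 in activated ones, and in knockout arrays at 8.19, 8.34 and 8.22 before and 7.44, 7.73 and 7.27 after. All activated arrays were below all naive arrays. The difference was -0.63 (SE 0.11, limma adjusted p = 0.00057) and -0.77 (SE 0.10, adjusted p = 2.9e-05), the largest fall of the family in each genotype, and both of its probe sets fell.

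The helicase paralogs Eif4a1 and Eif4a2, either of which can serve as the eIF4A of the complex, also moved apart. Eif4a1 stood at 12.68, 12.50 and 12.49 in wild-type naive arrays and 13.10 and 13.26 in activated ones, and in knockout arrays at 12.52, 12.52 and 12.44 before and 13.20, 13.20 and 13.22 after. It rose by 0.62 (SE 0.08, limma adjusted p = 4.3e-05) and 0.72 (SE 0.07, adjusted p = 2.8e-06), as did all 3 of its probe sets, with no overlap. Eif4a2 stood at 12.68, 12.75 and 12.76 before and 12.28 and 12.19 after in wild-type cells, and at 12.70, 12.76 and 12.78 before and 12.27, 12.28 and 12.30 after in knockout cells. Its activated arrays were all below its naive arrays, at differences of -0.50 (SE 0.07, adjusted p = 7.3e-05) and -0.47 (SE 0.06, adjusted p = 3.5e-05), read by its single probe set. Eif4a1 has an E-box in the promoter shown above and the window of Eif4a2 has none, while Eif3f, which fell, also has an E-box. The relation of the motif to the direction was not tested.

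The helicase cofactor Eif4b rose by 0.44 and 0.28. Eif4h, the other cofactor, stood at 11.93, 11.86 and 11.88 in wild-type naive arrays and 12.34 and 12.35 in activated ones, and in knockout arrays at 11.80, 11.82 and 11.73 before and 12.36, 12.35 and 12.33 after. Its groups did not overlap, and it rose by 0.46 (SE 0.07, limma adjusted p = 0.00011) and 0.57 (SE 0.06, adjusted p = 3.8e-06), as did 4 of its 6 probe sets. The mean of the 6 gave 0.12 in wild-type cells and did not pass (adjusted p = 0.13). A dim probe set of Eif4h, 1445746_at, fell by 1.04 and by 0.91 over all probe sets tested, from 5.08, 5.19 and 4.94 to 4.16 and 3.91 in wild-type arrays. It was the only probe set of a called member to pass in the opposite direction, and its activated level lay under that same lower quartile, 4.57. The scaffold genes Eif4g2 and Eif4g3 did not pass, with differences of 0.04 to 0.19. Of the 5 probe sets of Eif4g2, 1 rose and 1 fell in knockout cells, and of the 4 of Eif4g3, 1 fell in wild-type cells.

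Eif4a3 belongs to the exon junction complex on spliced mRNA rather than to eIF4F. It stood at 5.84, 5.75 and 5.74 in wild-type naive arrays and 5.82 and 5.70 in activated ones, and in knockout arrays at 5.94, 6.04 and 5.97 before and 5.81, 5.88 and 5.76 after. The wild-type groups overlapped and the knockout groups did not, but neither difference passed, -0.01 (SE 0.08) and -0.17 (SE 0.07, limma adjusted p = 0.068). Its single probe set read near the array medians of 5.84 to 5.89, and whether it detects the gene was not tested.

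The genes for proteins that bind eIF4E and hold it back followed the rest of the family: of 3 measured 2 rose and none fell in each genotype. Eif4ebp1 encodes 4E-BP1, which represses eIF4E until mTOR phosphorylates it. It stood at 8.88, 8.34 and 8.04 in wild-type naive arrays and 9.33 and 9.30 in activated ones, and in knockout arrays at 8.04, 7.78 and 7.44 before and 9.68, 9.67 and 9.43 after. The states did not overlap, and the naive arrays of each genotype were spread over more than the activated ones. It rose by 0.90 (SE 0.21, limma adjusted p = 0.0033) in wild-type and 1.84 (SE 0.19, adjusted p = 2.2e-06) in knockout cells; the probe set 1417562_at gave 0.80 and 1.42, and 1417563_at gave 0.10 and 0.12 and did not pass. Eif4enif1, the eIF4E transporter, stood at 9.98, 9.89 and 9.87 before and 10.56 and 10.83 after in wild-type cells, and at 9.80, 9.71 and 9.77 before and 10.91, 10.87 and 10.83 after in knockout cells. It rose without overlap by 0.78 (SE 0.09, adjusted p = 8.9e-06) and 1.11 (SE 0.08, adjusted p = 8.1e-08). Eif4ebp2, a paralog of Eif4ebp1, differed by -0.09 and -0.05 and did not pass, while 1 of its 5 probe sets fell.

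All 4 genes of subunit joining and eIF5A rose, with medians of 0.96 and 1.21. Eif6, which keeps the large subunit from joining too early and takes part in its maturation, stood at 10.42, 10.33 and 10.32 in wild-type naive arrays and 11.25 and 11.72 in activated ones, and in knockout arrays at 10.38, 10.28 and 10.27 before and 11.55, 11.50 and 11.55 after. It rose by 1.13 (SE 0.11, limma adjusted p = 3.2e-06) and 1.22 (SE 0.10, adjusted p = 3.1e-07). Eif5b, the GTPase of subunit joining, stood at 9.14, 8.92 and 8.94 before and 9.81 and 10.17 after in wild-type cells, and at 8.77, 8.72 and 8.69 before and 10.14, 10.01 and 10.18 after in knockout cells. It rose by 0.99 (SE 0.11, adjusted p = 6.9e-06) and 1.39 (SE 0.10, adjusted p = 7.0e-08). Eif5a2 stood at 6.69, 6.52 and 6.31 before and 7.34 and 7.51 after in wild-type cells, and at 6.73, 6.65 and 6.33 before and 7.82, 7.70 and 7.78 after in knockout cells. It rose by 0.92 (SE 0.13, adjusted p = 6.6e-05) and 1.20 (SE 0.12, adjusted p = 1.5e-06). For all 3 genes the states did not overlap. Eif5a, whose hypusine-carrying product helps the ribosome past hard stretches and in termination, rose by 0.66 and 0.76.

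**Figure D4:**
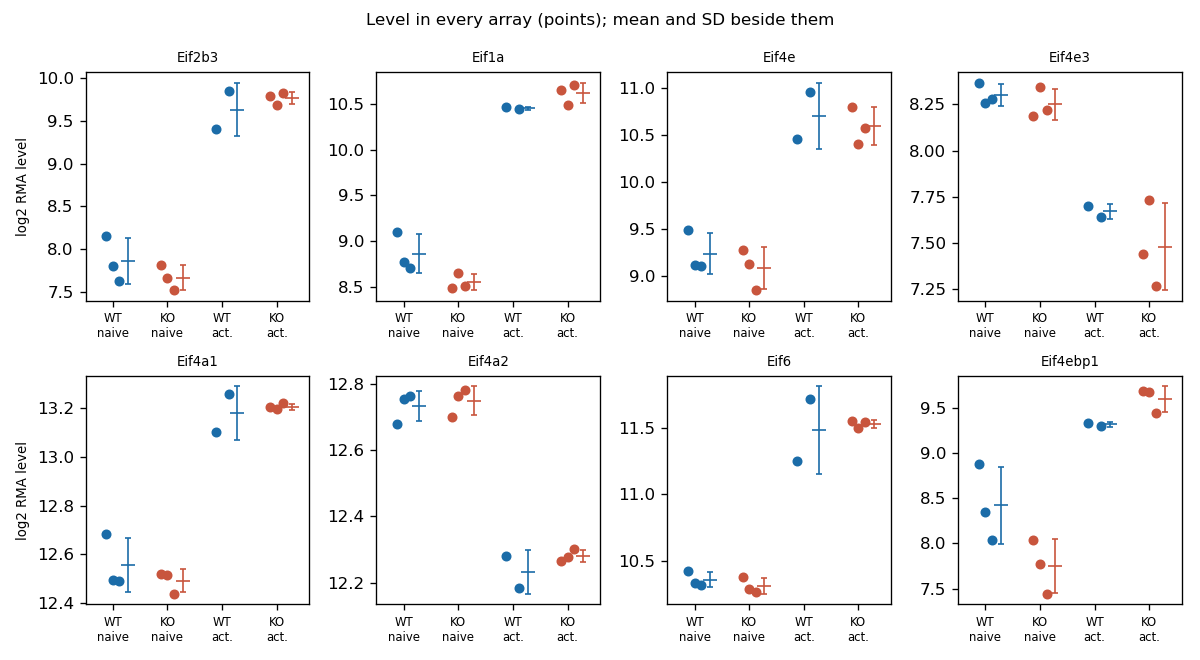
Log2 RMA level of 8 members in every array, by genotype and state, with a separate vertical scale for each gene; points are arrays, and the bars beside them are the mean and SD of the group. In 6 panels the activated arrays lie above the naive arrays, in those of Eif4e3 and Eif4a2 below, and no panel shows overlap between the states.

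Where a member had further probe sets, these mostly moved with the one chosen. Of the 43 genes 33 had others, 77 in all. Among called genes the other probe sets had the same sign in 51 of 54 cases on activation of wild-type cells and in 48 of 56 on that of knockout cells, and 35 and 40 passed in that direction. Some rises rested on part of the probe sets. In each genotype Eif2b5, Eif3d and Eif3m passed upward in 1 of 2 probe sets, Eif2d in 3 of 6 and Eif4e2 in 2 of 5.

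Genes that act on the initiation factors were listed apart from the 43, and 41 of the 45 listed were measured. The counts of these lists stand beside the shares of all genes. Those were 20.2% higher and 20.9% lower in wild-type cells, and 20.7% and 22.4% in knockout cells. Of 9 genes for eIF2 kinases, their partners and phosphatase subunits, 2 rose and 4 fell in wild-type and 2 rose and 3 fell in knockout cells. Ppp1r15a, which encodes GADD34, the subunit that directs a phosphatase to eIF2, fell from 11.52, 11.71 and 11.69 to 8.33 and 8.75 in wild-type arrays and from 11.73, 11.66 and 11.64 to 8.53, 8.33 and 8.58 in knockout arrays. No other listed gene moved as far, at -3.10 (SE 0.12, limma adjusted p = 1.7e-09) and -3.20 (SE 0.11, adjusted p = 2.3e-10). Eif2ak3, the kinase PERK of the endoplasmic reticulum, fell as well, with -1.07 and -1.15, and Eif2ak2, the double-stranded RNA kinase PKR, with -0.54 and -0.39. Eif2ak4, the amino acid sensing kinase GCN2, rose by 0.33 and 0.66, and its activator Gcn1 by 0.46 and 0.51.

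Of 8 kinases and brakes of the cap complex 3 rose and 4 fell in each genotype. Pdcd4, an inhibitor of eIF4A, fell, with -0.82 (SE 0.12) and -1.01 (SE 0.11), as did the eIF4E kinase genes Mknk1, with -0.60 and -0.76, and Mknk2, with -0.55 and -0.58. Larp1, which binds the mRNAs of ribosomal proteins, rose by 0.83 and 0.93. Among 13 mRNA and ribosome partners 9 rose and 1 fell in each genotype, among them Pabpc4, a poly(A)-binding protein, by 1.08 and 1.41, Ncbp2, a subunit of the nuclear cap-binding complex, by 1.01 and 1.40, and Abce1, the ribosome recycling factor, by 0.98 and 1.23. Paip2, an inhibitor of poly(A)-binding protein, was the one that fell, with -0.50 and -0.73. Both enzymes that make hypusine on eIF5A rose, Dhps by 0.95 and 1.01 and Dohh by 0.86 and 0.93. Of 9 elongation and termination genes 4 rose in wild-type cells, and 5 rose and 1 fell in knockout cells. The rises of at least 1 log2 were those of Eef1e1, a component of the tRNA synthetase complex (1.49 and 1.78), and of the release factor genes Etf1 (1.24 and 1.41) and Gspt1 (1.19 and 1.41). The product of Gspt1 is a known target of cereblon in the presence of certain drugs, none of which is named in the labels.

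The genotype made no call within the family in naive cells. With limma 0 of 43 genes passed, where 27 of 18194 genes (0.148%) did, and 6 members had an unadjusted p under 0.05. The 95% interval of the difference lay within 0.5 log2 of 0 for 41 members and within 1 for 42. Small differences leaned one way: 32 of 43 were negative (74.4%, against 47.9% of all genes), with a median of -0.07. The median of all genes was 0.01, but that of the 9097 genes above the median level, which hold 41 members, was -0.03. Part of the lean was thus shared with other bright genes. The 3 naive arrays of each genotype did not overlap for 15 members (34.9%, against 20.4% of all genes), of which 4 were higher in the knockout (9.94% of all genes) and 11 lower (10.4%). The size of this lean rested in part on single arrays. Wild-type naive replicate 1 was the highest naive array for 25 of 43 members, and without it the median was -0.02 with 31 negative. Knockout naive replicate 3 was the lowest naive array for 16 members, and without it the median was -0.04 with 33 negative.

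The erythroid markers moved with this order. Their mean was 9.01, 8.21 and 7.35 in the wild-type naive arrays 1 to 3 and 7.75, 6.60 and 6.26 in the knockout naive arrays, and their part in the result was not tested. The 3 smallest p-values belonged to Eif4ebp1, Eif1a and Eif3b, none of which passed. The values of Eif4ebp1 are those of the brightest of its 3 probe sets. Eif4ebp1, whose 6 naive values are given above, had a knockout minus wild-type difference of -0.67 (SE 0.19, 95% interval -1.07 to -0.26, limma adjusted p = 0.173), and its lowest and highest naive arrays were also those of the erythroid markers. The difference was -0.44 (adjusted p = 0.555) once replicate 1 of the wild-type naive arrays was dropped, and -0.86 (adjusted p = 0.038) once replicate 3 was. Eif1a differed by -0.31 (SE 0.10, 95% interval -0.53 to -0.09, adjusted p = 0.205) and Eif3b by -0.23 (SE 0.08, 95% interval -0.39 to -0.06, adjusted p = 0.209), and the groups of both did not overlap.

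In activated cells 0 of 43 passed with limma, against 11 genes of all (0.0605%), and 2 members had an unadjusted p under 0.05. All 43 intervals lay within 1 log2 of 0 and 41 within 0.5. Here 28 differences were positive, with a median of 0.04. The median was -0.02 over all genes and 0.01 over the 9097 genes above the median level. The groups of 10 members did not overlap (23.3%, against 19.4% of all genes). All 10 were higher in the knockout, where 7.37% of all genes were higher and 12% lower. The direction differed with the wild-type array left out: without wild-type activated replicate 1 the median was -0.04 with 14 positive, and without replicate 2 it was 0.11 with 38 positive. Eif5a2 had the smallest p, at 0.34 (SE 0.13, 95% interval 0.06 to 0.62, adjusted p = 0.632). Eif3m stood at 10.80 and 10.76 in wild-type and at 10.96, 10.99 and 10.96 in knockout activated arrays, after 10.61, 10.46 and 10.61 and 10.73, 10.66 and 10.59 in the naive ones. Its activated groups did not overlap, at a difference of 0.19 (SE 0.08, adjusted p = 0.653), and Eif4enif1 differed by 0.18 (SE 0.09, adjusted p = 0.748).

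**Figure D5:**
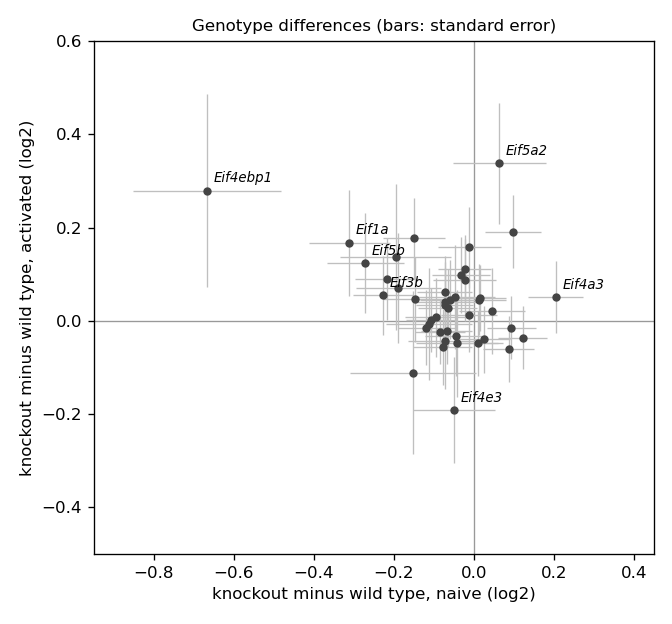
Knockout minus wild-type difference of the log2 RMA level of the 43 genes in naive cells (horizontal) and activated cells (vertical); bars are standard errors. No gene passed in either, and Eif4ebp1, read by the brightest of its 3 probe sets, lies apart at -0.67 in naive and 0.28 in activated cells.

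The interaction asks whether activation changed a gene by a different amount in knockout than in wild-type cells. With limma 0 of 43 members passed and 0 of all genes did (0%), and 6 members had an unadjusted p under 0.05. The interaction has the widest errors of the design, and 33 of 43 intervals lay within 0.5 log2 of 0. Of the 32 genes called the same way in both genotypes, 29 had the larger absolute difference in knockout cells, with medians of 0.73 for wild-type and 0.84 for knockout cells; of all genes called the same way in both, 71.4% did. The estimate was positive for 34 members (79.1%, against 45% of all genes), with a median of 0.10, which was 0.05 with 25 positive without wild-type activated replicate 1. Over all genes the median estimate was -0.03, but over the 9097 genes above the median level, which hold 41 members, it was 0.05. A positive estimate was thus in part shared with other bright genes. The 3 smallest interaction p-values belonged to Eif4ebp1 with 0.95 (SE 0.28, 95% interval 0.34 to 1.55, adjusted p = 0.261), Eif1a with 0.48 (SE 0.15, 95% interval 0.15 to 0.81, adjusted p = 0.281) and Eif4enif1 with 0.33 (SE 0.12, 95% interval 0.07 to 0.58, adjusted p = 0.291). Since the same naive arrays enter both, the naive difference of Eif4ebp1 is part of its interaction. Both were read by the brightest of its 3 probe sets, of which 2 passed on activation in each genotype. The probe set of Eif4ebp1 that did not pass had nearly equal activation differences in the genotypes, as given above. The interaction of Eif3h, called on activation of knockout cells alone, was -0.15 (SE 0.10, adjusted p = 0.49). The p-values measure the spread between these arrays, which the labels call biological replicates without naming the animals.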

How the data were processed

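Total RNA of 11 samples was labelled with biotin and read on 1 array each. Per the submitters' processing notes, the authors made the deposited log2 values with GCOS, RMA and Partek, in versions not given in the sources used here; they were used unchanged. Of 45101 probe sets 34958 carried 1 gene symbol, 932 several and 9211 none. Symbols came from the platform annotation, matched by Entrez number to RefSeq on GRCm38.p6, which changed 0 of them. Each gene was read by its brightest probe set. Probe sets shared between genes were left out. Quantile normalisation forces equal distributions on all arrays, so a change shared by all genes cannot be seen.

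Each comparison was a contrast of 4 group means fitted over all 11 arrays in limma (version 3.58.1, R 4.3.3), with moderated variances (5.46 prior and 7 residual degrees of freedom) and Benjamini-Hochberg adjustment over 18194 genes, at a threshold of 0.05; tests were two-sided. The number of arrays limits the precision. Standard errors of a member were 0.07 to 0.21 in wild-type and 0.06 to 0.19 in knockout activation. The script was tested on simulated data. Probe sets named by identifier were tested over all 34958.

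The members, role lists, marker lists and tests were chosen with earlier results of these data known. Values per array are given for members past the threshold with a difference of at least 1 log2, the 3 smallest p-values of each genotype comparison, genes with conflicting probe sets, and the leading 2 of each role; Eif4a1, Eif4a2, Eif3f and Eif3h were added after their values were seen. Replicate numbers were not used as pairs, because the labels do not say what a number marks. Deviations of arrays with the same number and genotype correlated between -0.30 and 0.27 over 5 pairs. Those with the same number and the other genotype correlated between -0.13 and 0.39 over 10 pairs, with 0.39, 0.02 and 0.31 for the naive ones. Arrays of different number gave -0.35 to 0.30 over 30 pairs. With 2 wild-type activated arrays the deviations mirror each other, so these ranges cannot decide whether numbers mark pairs. Alternatives changed the probe set rule, the level filter, the variance model, the arrays fitted, the normalisation, the block and each array in turn. Plots used matplotlib 3.10.9 and pandas 2.3.3 under Python 3.11.15.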

Additional observations from a re-analysis of the deposited data

How the results depend on the processing

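Activation results were recomputed under 9 other settings, genotype and interaction results under 8, and all with each of the 11 arrays left out in turn. No called value reversed; the median genotype difference in activated cells, which has no test, changed sign without wild-type activated replicate 1. The members that rose numbered 28 to 30 in wild-type and 29 to 33 in knockout activation over these settings, and those that fell 2 to 4 and 4 to 5. The median activation difference moved by more than the spread between replicates under some settings. In wild-type cells it was 0.53, 0.47 with the mean of all probe sets of a gene, 0.61 with each array centred on its median, and 0.45 to 0.56 when 1 array was left out. In knockout cells it was 0.67, 0.51 with the mean of probe sets, 0.60 after a second quantile normalisation, 0.75 after centring, and 0.62 to 0.67 when 1 array was left out. Centring moved the median of all genes in wild-type activation from 0.06 to 0.13 and the split of calls from 3672 higher and 3803 lower to 5374 and 3347; in knockout activation it moved from 3770 and 4081 to 4654 and 3374. Only genes above the median level holds 41 of the 43 members.

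In naive cells 0 members were lower in the knockout, and 1, Eif4ebp1, with replicate number as a block (adjusted p = 0.0187); leaving out 1 array gave 0 to 1. The block moved no member across the threshold in the other genotype comparison or the interaction. On activation of wild-type cells Eif3m was lost with the replicate block (adjusted p = 0.0626, and 0.0797 with the block within genotype), and Eif3f with the block within genotype (adjusted p = 0.124). The numbers share no stated origin, so these fits say nothing about the strength of an effect. Over all genes the naive genotype comparison called 27, 277 with the block and 10 to 341 when 1 array was left out, the highest without wild-type naive replicate 3. The activated comparison called 11, and 2 to 22 under other settings and 1 to 28 without an array. The interaction called 0, 0 to 11 under other settings and 0 to 4 without an array. Testing every probe set called 13208 of 34958 in wild-type and 14560 in knockout activation, against 7475 and 7851 genes.

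The median genotype difference in activated cells was 0.04 and lay between -0.0395 and 0.11 when 1 array was left out, and the median interaction was 0.10, 0.0486 after a second quantile normalisation and 0.0460 to 0.16 when 1 array was left out. Eif3f was lost in wild-type activation also with only the compared arrays (adjusted p = 0.0992) and with centring (0.149), and Eif3m with only the compared arrays (0.108) and without replicate 2 of either naive group (0.142 for wild type, 0.0532 for knockout), either wild-type activated array (0.13 and 0.0679), or replicate 1 or 3 of the knockout activated arrays (0.0516 and 0.0515). With the mean of probe sets Eif4h was lost in wild-type (0.12, adjusted p = 0.13) and Eif3h in knockout activation (-0.05, adjusted p = 0.522). The causes were not tested.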

Other observations

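Further genes that work beside the initiation factors passed on activation. Denr and Mcts1, whose products form a pair related to the Eif2d protein and act in reinitiation, rose by 0.79 and 0.43 in wild-type and by 0.99 and 0.45 in knockout cells. Paip1, which links poly(A)-binding protein to eIF4A, rose by 0.80 and 0.97, against the fall of Paip2 given above. Dhx29, a helicase for structured leaders, rose by 0.68 and 0.89, and Ncbp1, the partner of Ncbp2, by 0.63 and 0.79. Mtor and Rptor, the kinase and the scaffold of the complex that phosphorylates 4E-BP1, rose by 0.25 and 0.30 in wild-type and by 0.34 and 0.55 in knockout cells. Cyfip2, a member of a family of eIF4E-binding proteins, fell, with -0.44 and -0.50.

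Eef1a1 and Eef1b2 did not pass, with differences between -0.03 and 0.00. Eef1d, a subunit of the exchange factor of eEF1A, rose by 0.58 and 0.43. Eef2 differed by -0.16 in wild-type cells (limma adjusted p = 0.102) and fell, with -0.22, in knockout cells (adjusted p = 0.015). Eef2k, the kinase that inhibits its product, differed by 0.05 in wild-type cells and rose by 0.44 in knockout cells (adjusted p = 0.049). The differences between the genotypes in these responses did not pass the interaction test.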
